A study of Homo sapiens with 15 samples.

Results

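The levels of 10 p53 target genes, MDM2, SESN1, GADD45A, BTG2, ZMAT3, RRM2B, TIGAR, XPC, FDXR and TP53I3, were followed in H1299 cells, a non-small cell lung carcinoma line of human origin that is widely used as a p53-null model. The genes were chosen by name from the known targets of p53 and matched by symbol to the Ensembl IDs of the count table. All 10 were found among its 58395 genes, and all 10 passed the low-count filter, which kept 16889 genes. Cells grown in full RPMI medium with serum were washed and then held for 12 h in serum-free RPMI of 5 kinds, with 3 libraries each and 15 in all. The media held 5 mM glucose with 4 mM glutamine, 5 mM glucose with 4 mM ammonium chloride (NH4Cl), 4 mM glutamine alone, 5 mM glucose alone, or neither nutrient. All 5 media lacked serum, so no library shows the cells under full growth conditions, and a single cell line was used. Nothing in the labels ties the triplicates of a medium to separate days or cultures, and the p-values reflect the spread among these libraries alone, which may be technical.

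The transcription factor p53 is stabilised by DNA damage and other stresses and raises the transcription of genes that halt the cell cycle, repair DNA, limit growth or alter metabolism. MDM2, a ubiquitin ligase, is itself such a target and marks p53 for destruction, which closes a feedback loop. Its relative MDM4 inhibits p53 without being a ligase of comparable strength, and the relatives p63 and p73 can bind the same DNA element. Many p53 targets also answer to other factors. Sestrin and GADD45 genes, for instance, are known to be raised by forkhead (FOXO) factors or by ATF4, the factor that answers amino acid shortage, in cells with or without p53.

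Libraries held 14914127 to 19938691 counted reads. Levels are given in CPM, a gene's counts brought to a common library size after scaling by the trimmed mean of M-values (TMM), and a floor of 3 counts lay at 0.15 to 0.201 CPM, which covers counting error only. In these bulk libraries a lower level in every cell and fewer cells with the transcript cannot be told apart. The scaling factors were 0.793 in each of the 3 libraries with neither nutrient, against 1.006 to 1.086 in the other 12. The labels name a lymph node as the tissue, and 1 of 10 lymphocyte markers (CORO1A, at most 94 counts) passed the low-count filter. The T cell genes CD3E, CD3D, CD2 and LCK had at most 3 counts in every library. The summed level of the lymphocyte list was 5.72 to 6.46 CPM with both nutrients, 2.34 to 2.65 with glucose and NH4Cl, 5.09 to 5.97 with glutamine alone, 2.05 to 2.64 with glucose alone and 6.39 to 8.38 with neither, and its part in the results was not tested. Of 7 fibroblast markers 2 passed the filter, with at most 31 counts, and of 6 endothelial markers 1 did. The keratin genes KRT8 and KRT18 and the mesenchymal genes VIM, CDH2 and ZEB1 were all well counted, while the epithelial genes EPCAM and CDH1 had at most 16 and 6 counts.

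No check of the p53-null state of the line is reported here. Whether reads were counted by strand is not stated in the sources used, so reads of genes that overlap on opposite strands cannot be told apart. Of the p53 relatives, TP63 had at most 7 reads in a library and did not pass the filter, and TP73 had 36 to 197 reads.

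Start-site windows of 300 bases (250 before to 50 after the start) were available from RefSeq on GRCh38.p14 for 8 of the 10 genes, in 15 windows. Of these 3 are shown because they match the p53 response element (1 of 2 overlapping MDM2 windows) or a single unit of it (SESN1 and FDXR). This element consists of a pair of 10-base units. An exact unit, searched on both strands, occurred in 6.63% of the 35116 windows of all genes, and in 2 of the 15 windows of these genes. A pair of units with no spacer and at most 2 mismatches occurred in 0.649% of all windows, and in 2 of the 15, both of them overlapping windows of the inner MDM2 promoter. Capitals mark the match, and sequences run 5′ to 3′ on the strand of the gene.
MDM2 inner promoter (chr12:68808767-68809066, plus strand), 20-base match with 2 mismatches at positions -94 to -75 from the start:
MDM2: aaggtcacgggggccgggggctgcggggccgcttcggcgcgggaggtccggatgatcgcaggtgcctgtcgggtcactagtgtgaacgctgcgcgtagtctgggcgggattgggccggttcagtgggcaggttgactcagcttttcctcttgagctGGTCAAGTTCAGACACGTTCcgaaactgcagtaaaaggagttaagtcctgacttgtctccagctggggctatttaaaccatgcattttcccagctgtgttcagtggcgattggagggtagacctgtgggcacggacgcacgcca
SESN1 inner start (chr6:109008939-109009238, minus strand), exact 10-base unit at positions -49 to -40:
SESN1: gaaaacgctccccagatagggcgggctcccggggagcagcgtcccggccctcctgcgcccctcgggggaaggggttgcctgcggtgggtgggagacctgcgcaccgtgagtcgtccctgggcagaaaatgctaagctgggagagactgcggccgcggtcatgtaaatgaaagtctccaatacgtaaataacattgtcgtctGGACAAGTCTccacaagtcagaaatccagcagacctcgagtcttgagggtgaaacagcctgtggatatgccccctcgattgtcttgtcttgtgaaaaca
FDXR start (chr17:74872945-74873244, minus strand), exact 10-base unit at positions -11 to -2:
FDXR: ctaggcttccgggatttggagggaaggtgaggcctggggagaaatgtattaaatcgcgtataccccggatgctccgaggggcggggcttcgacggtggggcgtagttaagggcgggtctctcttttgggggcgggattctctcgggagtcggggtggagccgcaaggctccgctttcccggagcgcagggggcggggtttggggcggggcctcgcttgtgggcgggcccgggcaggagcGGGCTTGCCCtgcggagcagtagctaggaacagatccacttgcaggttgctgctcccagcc
The ATF4 composite element TGATGNAA occurred in 3.62% of all windows and the forkhead element GTAAACA in 3.42%, on either strand, and in 0 of these 15. A match is a description of letters and not a site in use, and its absence says only that these letters are not in these windows.

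**Figure D1:**
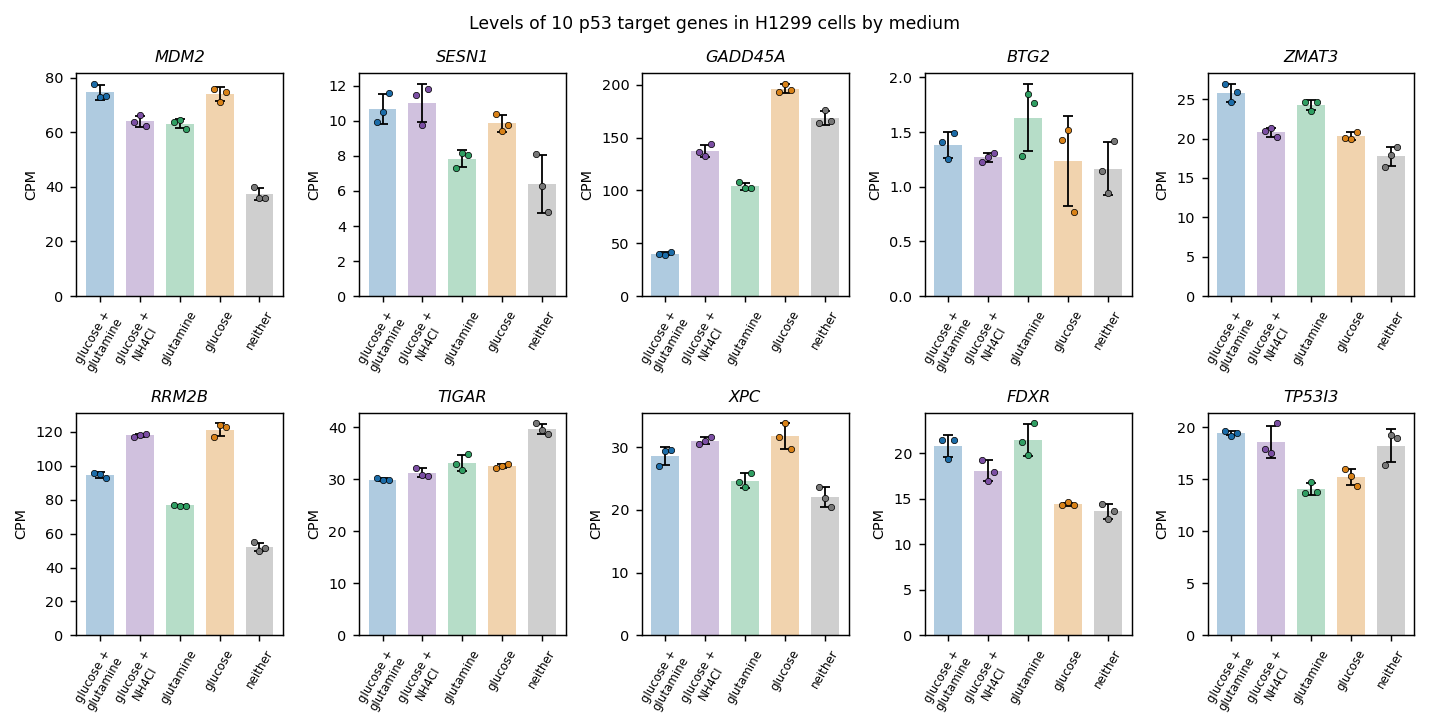
CPM of the 10 genes in each medium: points are the 3 libraries, bars their mean and error bars the SD, and each axis starts at 0. GADD45A is low with both nutrients (39.0 to 41.6 CPM), MDM2 and RRM2B are low with neither nutrient, TIGAR is high there (38.8 to 40.8 CPM), and BTG2 stays under 2 CPM.

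The width of the response differed between the genes. The highest mean over the 5 media was 4.88 times the lowest for GADD45A, 2.33 times for RRM2B, 1.99 times for MDM2, 1.72 times for SESN1 and 1.58 times for FDXR, and 1.32 to 1.45 times for ZMAT3, XPC, BTG2, TP53I3 and TIGAR. On the scale of log2 CPM the median range over all 16889 genes tested was 0.90. GADD45A (2.28), RRM2B (1.22) and MDM2 (0.99) exceeded it, and the other 7 lay between 0.40 and 0.80. Of all genes tested, 4.61% had a wider range than GADD45A, 30.4% a wider one than RRM2B, 43.6% a wider one than MDM2 and 91.0% a wider one than TIGAR. Relative to exon length, GADD45A reached 94.9 CPM per kb with glucose alone, RRM2B 21.9 CPM per kb in the same medium, and BTG2 at most 0.592 CPM per kb, with glutamine alone.

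MDM2 (ENSG00000135679, chromosome 12, 68808176 to 68850686, GRCh38), the ubiquitin ligase gene, was low without either nutrient. It had 77.7, 72.8 and 73.1 CPM with both nutrients, 63.6, 66.3 and 62.3 CPM with glucose and NH4Cl, 63.6, 64.3 and 61.2 CPM with glutamine alone, 75.9, 71.0 and 74.7 CPM with glucose alone, and 40.1, 36.0 and 36.0 CPM with neither. The 3 libraries with neither nutrient lay below all 12 others. Against neither nutrient MDM2 rose with both (log2 change 0.99 ± 0.045, SE), with glucose alone (0.98 ± 0.046) and with glutamine alone (0.75 ± 0.047, edgeR adjusted p = 5.44e-36). The difference between both nutrients and glucose alone did not pass the test (0.01 ± 0.038, adjusted p = 0.792), nor did that between glucose with NH4Cl and glutamine alone (0.02 ± 0.040, adjusted p = 0.633), and in each case the libraries overlapped. With library totals alone the difference between glucose with NH4Cl and glutamine alone did pass (0.13, edgeR adjusted p = 0.00383). The gene of carboxypeptidase M on the opposite strand shares 133 exon bases with MDM2 (1.0%) and had 1509 to 3968 reads, and the pseudogene AC025423.2 and the antisense gene AC025423.4 had 0 in every library.

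Among the genes of stress and growth control, SESN1 (ENSG00000080546, chromosome 6, 108986437 to 109094819), which encodes a sestrin that restrains mTORC1, was higher where glucose was present. It had 9.92, 10.5 and 11.6 CPM with both nutrients, 11.5, 9.78 and 11.8 CPM with glucose and NH4Cl, 7.33, 8.19 and 8.04 CPM with glutamine alone, 10.4, 9.43 and 9.75 CPM with glucose alone, and 8.12, 6.26 and 4.81 CPM with neither. All 9 libraries with glucose lay above all 6 without it, and the libraries with glutamine alone overlapped those with neither. SESN1 rose where glucose was added to glutamine (log2 change 0.44 ± 0.104, SE, edgeR adjusted p = 7.79e-05) and where glucose alone was set against neither (0.61 ± 0.117). The differences among the 3 glucose media did not pass the test, with adjusted p of 0.257 to 0.744. The antisense gene AL390208.1 had at most 2 reads.

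GADD45A (ENSG00000116717, chromosome 1, 67685061 to 67688338) encodes a small protein that binds cell cycle and stress kinases, and it changed in all 10 pairs of media. It had 40.1, 39.0 and 41.6 CPM with both nutrients, 136, 133 and 144 CPM with glucose and NH4Cl, 108, 102 and 102 CPM with glutamine alone, 193, 201 and 195 CPM with glucose alone, and 164, 176 and 166 CPM with neither. The 5 media did not overlap, and glucose alone was highest, above the medium with neither nutrient. Glutamine added to glucose lowered the gene 4.87-fold (log2 change -2.28 ± 0.035, edgeR adjusted p = 2e-126), and NH4Cl added to glucose lowered it 1.43-fold (-0.51 ± 0.029, adjusted p = 2.02e-38). Glutamine alone was lower than neither nutrient (-0.69 ± 0.032). The position of glucose with NH4Cl relative to neither rested on the scaling, at -0.29 with TMM and 0.16 with library totals alone.

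BTG2 (ENSG00000159388, chromosome 1, 203305491 to 203309602), an antiproliferative gene of the BTG and TOB family, was the lowest of the 10, with 12 to 37 reads per library. It had 1.41, 1.25 and 1.49 CPM with both nutrients, 1.23, 1.27 and 1.31 CPM with glucose and NH4Cl, 1.28, 1.85 and 1.77 CPM with glutamine alone, 1.43, 1.52 and 0.768 CPM with glucose alone, and 1.14, 0.94 and 1.42 CPM with neither. The media overlapped in all 10 pairs and the gene passed edgeR's test in 0 of them, with a smallest unadjusted p of 0.0756. The approximate 95% interval of the log2 change was -0.36 to 0.68 for glutamine added to glucose and -0.05 to 1.04 for glutamine alone against neither. The DESeq2 Wald test called it in 0 pairs as well. It passed with library totals alone for glutamine alone (log2 change 0.84, adjusted p = 0.00419) and both nutrients (0.69, adjusted p = 0.0211) against neither, and without glutamine replicate 1 for glutamine alone against neither (0.63, adjusted p = 0.0487). ZMAT3 (ENSG00000172667, chromosome 3, 179017223 to 179072279), which encodes a zinc finger protein that binds RNA and alters splicing, was higher where glutamine was present. It had 26.9, 24.6 and 25.9 CPM with both nutrients, 21.0, 21.3 and 20.2 CPM with glucose and NH4Cl, 24.6, 23.5 and 24.7 CPM with glutamine alone, 20.1, 19.9 and 20.9 CPM with glucose alone, and 16.4, 17.9 and 18.9 CPM with neither. All 6 libraries with glutamine lay above all 9 without it. Glutamine raised ZMAT3 with glucose (log2 change 0.35 ± 0.065, SE, edgeR adjusted p = 6.22e-07) and without it (0.45 ± 0.072, adjusted p = 4.25e-09). The rise with glucose alone against neither (0.20 ± 0.074, adjusted p = 0.0117) was lost without the library neither replicate 1 (0.13, adjusted p = 0.15), with the DESeq2 Wald test (adjusted p = 0.0514) and without the low-count filter (adjusted p = 0.12).

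Of the 2 genes of nucleotide supply and DNA repair, RRM2B (ENSG00000048392, chromosome 8, 102204502 to 102239118) encodes the p53-inducible small subunit of ribonucleotide reductase, which makes deoxynucleotides outside S phase. It had 95.9, 94.9 and 92.8 CPM with both nutrients, 117, 118 and 119 CPM with glucose and NH4Cl, 77.1, 76.4 and 76.3 CPM with glutamine alone, 117, 124 and 123 CPM with glucose alone, and 55.0, 50.0 and 51.5 CPM with neither. Only the media glucose alone and glucose with NH4Cl overlapped (log2 change -0.04 ± 0.031, SE, edgeR adjusted p = 0.333). RRM2B rose 2.32-fold with glucose alone against neither (1.21 ± 0.037, adjusted p = 2.78e-77) and 1.46-fold with glutamine alone against neither (0.55 ± 0.040). Glutamine added to glucose lowered it (-0.36 ± 0.032, adjusted p = 2.15e-22).

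XPC (ENSG00000154767, chromosome 3, 14145147 to 14178783) encodes the damage sensor of nucleotide excision repair and followed a similar but narrower order. It had 27.0, 29.3 and 29.5 CPM with both nutrients, 30.5, 31.0 and 31.6 CPM with glucose and NH4Cl, 24.4, 23.6 and 25.9 CPM with glutamine alone, 31.6, 33.8 and 29.7 CPM with glucose alone, and 23.7, 21.8 and 20.5 CPM with neither. All 9 libraries with glucose lay above all 6 without it. XPC rose with glucose alone against neither (log2 change 0.52 ± 0.064, SE, edgeR adjusted p = 1.31e-13) and with glucose added to glutamine (0.22 ± 0.060). The fall with glutamine added to glucose was 1.11-fold (-0.15 ± 0.057, adjusted p = 0.0148). It was lost without glucose and glutamine replicate 1 (-0.11, adjusted p = 0.128), without glucose replicate 2 (-0.10, adjusted p = 0.155) and without the low-count filter (adjusted p = 0.0743). XPC shares 1140 exon bases (23.76%) with the antisense gene AC093495.1, which had at most 13 reads, 413 with AC090004.1 (at most 16 reads) and 318 with LSM3, which had 592 to 1490 reads.

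Among the metabolic genes TIGAR (ENSG00000078237, chromosome 12, 4307763 to 4354593), which encodes a fructose-bisphosphatase that opposes glycolysis, was highest with neither nutrient relative to the TMM-scaled totals. It had 30.2, 29.8 and 29.8 CPM with both nutrients, 32.2, 30.9 and 30.7 CPM with glucose and NH4Cl, 33.0, 31.8 and 34.8 CPM with glutamine alone, 32.1, 32.6 and 32.9 CPM with glucose alone, and 40.8, 39.4 and 38.8 CPM with neither. The 3 libraries with neither nutrient lay above all 12 others, but with library totals alone the direction turned in each of the 4 comparisons with that medium. TIGAR fell by 0.41 on the log2 scale (± 0.055, SE) with both nutrients against neither and by 0.29 (± 0.054) with glucose alone. The fall with glutamine added to glucose (-0.12 ± 0.054, edgeR adjusted p = 0.0405) was lost with library totals alone, with the DESeq2 Wald test, without the low-count filter and without any 1 of the 6 libraries (adjusted p 0.054 to 0.0983). GENCODE 29 also has AC008012.1 on the same strand, which covers 42.59% of the exon bases of TIGAR and is not among the counted genes, and the pseudogene AC006122.1 had at most 3 reads.

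FDXR (ENSG00000161513, chromosome 17, 74862497 to 74873031) encodes ferredoxin reductase, which passes electrons from NADPH to the mitochondrial ferredoxins of steroid and iron-sulphur cluster synthesis, and it was higher where glutamine was present. It had 21.5, 19.4 and 21.4 CPM with both nutrients, 19.3, 17.0 and 17.9 CPM with glucose and NH4Cl, 21.2, 19.8 and 23.3 CPM with glutamine alone, 14.3, 14.6 and 14.3 CPM with glucose alone, and 14.4, 12.8 and 13.6 CPM with neither. The 9 libraries with glutamine or NH4Cl lay above the 6 with neither of them. Glutamine raised FDXR 1.44-fold with glucose (log2 change 0.53 ± 0.074, SE, edgeR adjusted p = 8.95e-11) and 1.57-fold without it (0.65 ± 0.080). NH4Cl added to glucose raised it 1.25-fold (0.32 ± 0.077, adjusted p = 0.000317). The level with glucose and NH4Cl was lower than with both nutrients (-0.20 ± 0.072, adjusted p = 0.00911), a call lost without glucose and NH4Cl replicate 2 (-0.16, adjusted p = 0.0762) and with the DESeq2 Wald test (adjusted p = 0.057).

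TP53I3 (ENSG00000115129, chromosome 2, 24077433 to 24085861, also called PIG3) encodes a quinone oxidoreductase linked to reactive oxygen species. It had 19.6, 19.2 and 19.5 CPM with both nutrients, 17.9, 17.5 and 20.4 CPM with glucose and NH4Cl, 13.7, 14.7 and 13.8 CPM with glutamine alone, 16.0, 15.3 and 14.4 CPM with glucose alone, and 16.4, 19.3 and 19.0 CPM with neither. The 6 libraries with a single nutrient lay below the other 9 on the TMM scale. Glutamine added to glucose raised TP53I3 (log2 change 0.35 ± 0.075, SE, edgeR adjusted p = 1.39e-05), glucose added to glutamine raised it (0.46 ± 0.076) and so did NH4Cl added to glucose (0.28 ± 0.076, adjusted p = 0.00161). With glutamine alone it was lower than with neither nutrient (-0.36 ± 0.081), a call that was lost with library totals alone (-0.02, adjusted p = 0.868). With glucose alone it was also lower than with neither (-0.25 ± 0.080, adjusted p = 0.00322), which turned to 0.19 (adjusted p = 0.0254) with library totals alone. FAM228B on the opposite strand shares 80 exon bases with TP53I3 and had 6 to 64 reads.

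Glutamine added to glucose raised 3 of the 10 genes, ZMAT3, FDXR and TP53I3, and lowered 4, GADD45A, RRM2B, TIGAR and XPC. Over all genes tested 34.2% were higher and 33.7% lower, so both shares of the 10 were close to the background. The median log2 change of the 10 was 0.06, against 0.00 over all genes. MDM2, SESN1 and BTG2 did not pass the test, at 0.01, 0.12 and 0.16. GADD45A was the 1 gene of the 10 that changed more than 2-fold, and 2058 of all 16889 genes were called with at least that change. With a test against a 1.2-fold change, added after the data were seen, 3 of the 7 calls were made, 1 higher and 2 lower. Over all 16889 genes that test called 3814 higher and 3603 lower.

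NH4Cl added to glucose raised FDXR and TP53I3 and lowered MDM2 and GADD45A. The backgrounds were 12.7% higher and 16.9% lower. MDM2 fell to 64.1 ± 2.01 CPM with glucose and NH4Cl, against 73.9 ± 2.54 CPM with glucose alone (SD, n = 3 each), a log2 change of -0.20 ± 0.039 (SE, edgeR adjusted p = 5e-06). The other 6 genes gave log2 changes of -0.06 to 0.16. In this comparison and the one before it, which share the glucose libraries, FDXR changed by 0.32 with NH4Cl and by 0.53 with glutamine, TP53I3 by 0.28 and 0.35, and GADD45A by -0.51 and -2.28. MDM2 passed only with NH4Cl (-0.20, against 0.01 with glutamine). ZMAT3 (0.04 with NH4Cl and 0.35 with glutamine), RRM2B (-0.04 and -0.36), TIGAR and XPC passed only with glutamine. SESN1 and BTG2 passed in neither comparison. Set directly against both nutrients, glucose with NH4Cl was higher for GADD45A (log2 change 1.77 ± 0.037) and RRM2B (0.32 ± 0.032) and lower for MDM2 (-0.22 ± 0.039), ZMAT3 (-0.31 ± 0.065) and FDXR. These were 2 higher and 3 lower, with backgrounds of 31.2% and 33.4%. TP53I3 did not pass that test (-0.06 ± 0.073, adjusted p = 0.445), and neither did XPC (0.12 ± 0.058, adjusted p = 0.0635), although its libraries did not overlap. XPC passed with DESeq2 size factors (0.14, adjusted p = 0.0269) and with the compared media alone (0.14, adjusted p = 0.0324).

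Glucose added to glutamine raised 5 of the 10, MDM2, SESN1, RRM2B, XPC and TP53I3, and lowered GADD45A and TIGAR. The backgrounds were 32.6% higher and 33% lower. On library totals alone 6 were higher and 1 lower, and the share of all calls that were higher was 60.8% in place of 49.7%. Of all 16889 genes 6764 were then higher and 4359 lower. GADD45A fell to 40.3 ± 1.28 CPM with both nutrients, against 104 ± 3.35 CPM with glutamine alone (SD, n = 3 each), a log2 change of -1.37 ± 0.038 (SE, edgeR adjusted p = 1.97e-83). MDM2 rose by 0.24 ± 0.039 and RRM2B by 0.30 ± 0.034. FDXR (-0.04) and ZMAT3 (0.09) did not pass the test, but ZMAT3 did with library totals alone (0.19, edgeR adjusted p = 0.00483). The fall of TIGAR (-0.15 ± 0.054, adjusted p = 0.013) was lost without glutamine replicate 3 (-0.11, adjusted p = 0.0904) and with library totals alone (-0.05, adjusted p = 0.456).

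The comparisons with the medium that held neither nutrient depended on how libraries were scaled. With library totals alone the median of all genes moved up by 0.44 on the log2 scale for glucose alone, 0.34 for glutamine alone, 0.44 for both nutrients and 0.45 for glucose with NH4Cl, and changes are given relative to the TMM scale. Glucose alone raised 6 of the 10 genes (MDM2, SESN1, GADD45A, ZMAT3, RRM2B and XPC) and lowered TIGAR and TP53I3, with backgrounds of 39.9% and 37.9%. On library totals alone it raised 9 and lowered 0, and 74.2% of all calls were higher in place of 51.3%. Of all 16889 genes it raised 10145 and lowered 3533 on that scale. TIGAR then had 0.15 (adjusted p = 0.00804) in place of -0.29, and TP53I3 had 0.19 (adjusted p = 0.0254) in place of -0.25. FDXR, which did not pass on the TMM scale (0.08), had 0.52 (edgeR adjusted p = 2.3e-08). MDM2 and RRM2B rose by 0.98 and 1.21 on the TMM scale.

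Glutamine alone against neither raised 6 genes, MDM2, SESN1, ZMAT3, RRM2B, XPC and FDXR, and lowered GADD45A, TIGAR and TP53I3. The backgrounds were 37% higher and 35.8% lower. With library totals alone 7 were higher and 1 lower, 74.2% of all calls were higher in place of 50.8%, and TIGAR had 0.08. Of all 16889 genes 9531 were then higher and 3312 lower. SESN1 (0.28 ± 0.122, SE, edgeR adjusted p = 0.0316) had overlapping libraries and was lost without glutamine replicate 2 or 3 and without neither replicate 2 or 3, where it ranged down to 0.12. XPC (0.15 ± 0.067, adjusted p = 0.0319) was lost without glutamine replicate 1 or 3 and without neither replicate 2 or 3, down to 0.11. Both were also lost with DESeq2 size factors, with the DESeq2 Wald test and without the low-count filter, at adjusted p of 0.051 to 0.126.

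Both nutrients against neither raised MDM2, SESN1, ZMAT3, RRM2B, XPC and FDXR, 6 of the 10, and lowered GADD45A and TIGAR. The backgrounds were 37% higher and 35.3% lower, and the median of the 10 was 0.46 against 0.05 over all genes. With library totals alone 8 were higher and 1 lower, 81.9% of all calls were higher in place of 51.2%, and TIGAR had 0.04. Of all 16889 genes 10866 were then higher and 2405 lower. GADD45A fell 4.18-fold (log2 change -2.06 ± 0.037, SE, edgeR adjusted p = 1.59e-115) and was lower in either scaling. TP53I3 (0.10 ± 0.076, adjusted p = 0.234) and BTG2 (0.25 ± 0.286) did not pass the test, but with library totals alone both did, TP53I3 at 0.54 (adjusted p = 1.14e-10).

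Among the other pairs of media, glutamine alone against glucose alone changed 7 of the 10 (background 66.5%). FDXR and ZMAT3 were higher, and MDM2, SESN1, GADD45A, RRM2B and XPC were lower. With library totals alone 2 were higher and 6 lower, and 40.6% of all calls were higher in place of 50.3%. Of all 16889 genes 4566 were then higher and 6670 lower. Glucose with NH4Cl against glutamine alone changed 7 (background 64.4%), 5 higher and 2 lower, or 6 and 0 with library totals alone, with 61.4% of all calls higher in place of 49.1%. On that scale 6774 of all 16889 genes were higher and 4262 lower. Glucose with NH4Cl against neither changed 8 (background 77.5%), 6 higher and 2 lower, or 8 and 0 with library totals alone, with 75.5% of all calls higher in place of 51.1%. On that scale 10270 of all 16889 genes were higher and 3325 lower. In this last comparison the call of ZMAT3 (0.24 ± 0.074, SE, edgeR adjusted p = 0.00231) was lost without neither replicate 1 (adjusted p = 0.0527).

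**Figure D2:**
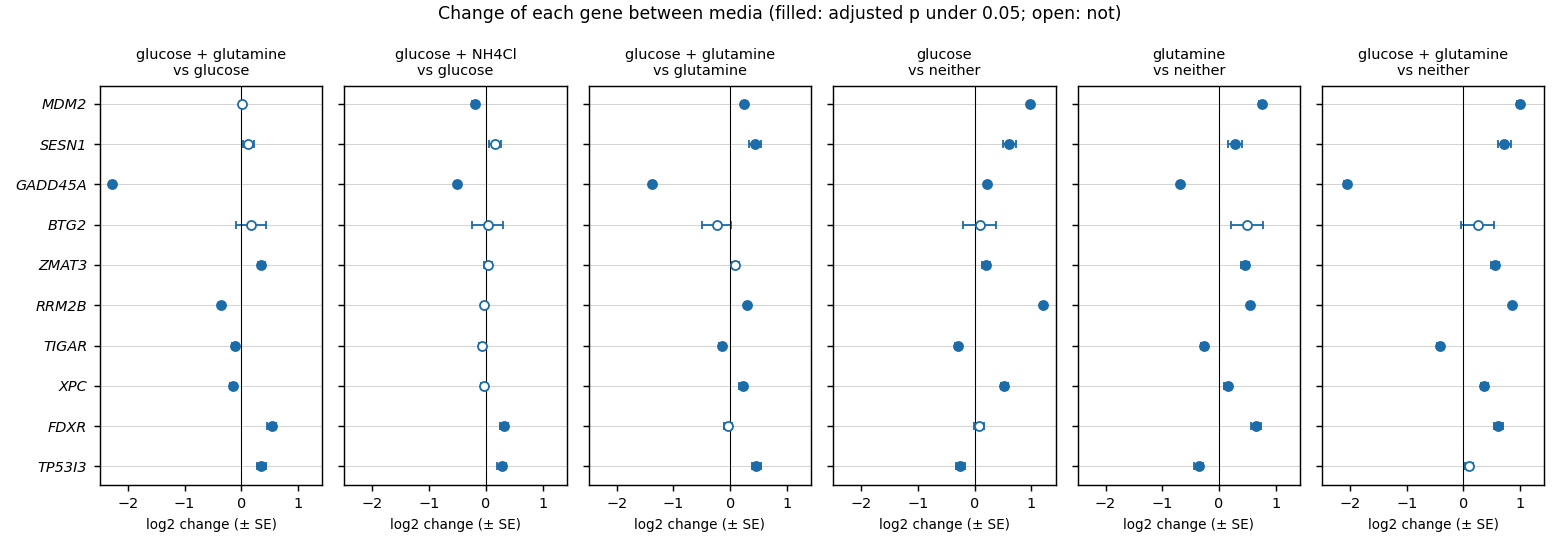
Log2 change of each gene in 6 comparisons, with SE bars. Filled points passed an adjusted p of 0.05 and open points did not. GADD45A lies far to the left where both nutrients are compared with glucose (-2.28), with glutamine (-1.37) and with neither (-2.06), while MDM2 and RRM2B lie to the right in each comparison with neither nutrient.

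The effect of glutamine was set against the presence of glucose by testing the difference between its effect with glucose and its effect without. Of the 10 genes 5 passed this test (background 74.8%), 4 lower and 1 higher, and 9 passed with library totals alone, where the median of all genes moved by -0.34 and 33.7% of all calls were higher in place of 49.2%. On that scale 4324 of all 16889 genes were higher and 8497 lower. For MDM2 the effect of glutamine was 0.01 ± 0.038 with glucose and 0.75 ± 0.047 without, a difference of -0.74 ± 0.060 (SE, edgeR adjusted p = 5.49e-25). RRM2B changed in opposite directions, by -0.36 with glucose and 0.55 without (difference -0.91 ± 0.051, adjusted p = 2.46e-41). TP53I3 had 0.35 with glucose and -0.36 without (difference 0.71 ± 0.110, adjusted p = 2.68e-09), but the change without glucose was -0.02 (adjusted p = 0.868) with library totals alone. GADD45A fell in both settings, by 2.28 with glucose and by 0.69 without (difference -1.59 ± 0.048). The difference for XPC was -0.30 ± 0.088 (adjusted p = 0.00109). For ZMAT3 (-0.11 ± 0.097), FDXR (-0.12 ± 0.110), SESN1 (-0.16 ± 0.158), BTG2 (-0.34 ± 0.385) and TIGAR (0.14 ± 0.077) the difference did not pass. With library totals alone ZMAT3 (-0.44, adjusted p = 1.84e-05), FDXR (-0.46, adjusted p = 9.19e-05) and SESN1 (-0.50, adjusted p = 0.00305) did pass. SESN1 passed without neither replicate 1 (-0.39, adjusted p = 0.0392), and TIGAR passed without glutamine replicate 3 (0.18, adjusted p = 0.0379) but was -0.20 with library totals alone (adjusted p = 0.015).

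**Figure D3:**
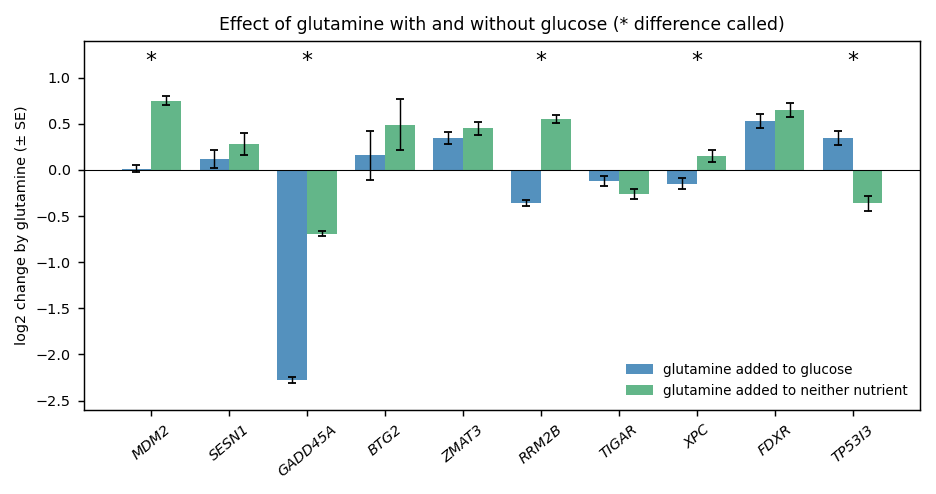
Log2 change with glutamine added, in medium with glucose (left bar of each pair) and in medium with neither nutrient (right bar), with SE bars. A star marks the 5 genes whose pair of bars differed at an adjusted p of 0.05, among them RRM2B (-0.36 and 0.55) and TP53I3 (0.35 and -0.36), where the bars point in opposite directions on this TMM scale. The TP53I3 value of -0.36 was -0.02 (adjusted p = 0.868) with library totals alone.

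The p53 relatives and regulators did not move as a block. TP73, which encodes p73, had 11.1, 9.18 and 10.3 CPM with both nutrients, against 2.31, 2.17 and 2.84 CPM with glucose alone, and rose (log2 change 2.07 ± 0.140, SE, edgeR adjusted p = 5.06e-32). It had 3.18, 3.29 and 3.11 CPM with glutamine alone, against 6.71, 6.73 and 6.31 CPM with neither, so glutamine lowered it there (-1.04 ± 0.149). MDM4 had 17.4, 17.2 and 16.6 CPM with both nutrients, against 47.5, 47.1 and 48.0 CPM with glucose alone (-1.48 ± 0.057, adjusted p = 6.93e-62). It had 38.7, 37.3 and 41.2 CPM with glutamine alone, against 17.7, 17.5 and 16.3 CPM with neither (1.18 ± 0.063). MDM4 was thus high with a single nutrient, and also with glucose and NH4Cl (39.5, 38.4 and 39.7 CPM). For both nutrients against neither MDM4 had -0.01 ± 0.074, but 0.43 (edgeR adjusted p = 5.78e-08) with library totals alone. Its relative MDM2 did not pass the test between both nutrients and glucose alone.

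Of the FOXO genes, whose proteins can bind at sestrin and GADD45 genes, FOXO3 had 56.4, 56.7 and 53.3 CPM with both nutrients, against 135, 140 and 134 CPM with glucose alone (log2 change -1.30 ± 0.034, SE, edgeR adjusted p = 1.85e-87). FOXO4 rose with glucose added to glutamine (0.61 ± 0.074) and with NH4Cl added to glucose (0.41 ± 0.063, adjusted p = 1.56e-08), while NH4Cl lowered FOXO3 (-0.29 ± 0.030). With glutamine added to glucose FOXO4 fell slightly (-0.15 ± 0.067, adjusted p = 0.038), and FOXO1 did not pass (-0.12 ± 0.160). FOXO6, with 7 to 29 reads, fell there as well (-0.98 ± 0.314, adjusted p = 0.00357). Its libraries overlapped, at 0.374 to 1.18 CPM with both nutrients and 1.04 to 1.71 CPM with glucose alone.

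The paralogs of the 10 genes were read beside them, together with the partner genes RRM1, FDX1 and FDX2, which are not paralogs. SESN2, a sestrin gene known as an ATF4 target, had 21.1, 20.8 and 20.8 CPM with both nutrients, against 448, 449 and 462 CPM with glucose alone, and fell by 4.44 on the log2 scale (± 0.034, SE, edgeR adjusted p = 1.08e-179), where SESN1 had 0.12 ± 0.100. SESN3 (0.00 ± 0.097) did not pass there, and like SESN1 it rose with glucose added to glutamine (1.02 ± 0.111). GADD45B fell with glutamine added to glucose (-1.66 ± 0.040), as GADD45A did. With neither nutrient GADD45B had 350, 351 and 353 CPM, above the 30.4 to 109 CPM of all 12 other libraries, while GADD45A was highest with glucose alone. GADD45G had at most 1 read.

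BTG1 had 52.7, 53.6 and 50.8 CPM with both nutrients, against 407, 409 and 414 CPM with glucose alone, and fell (log2 change -2.97 ± 0.030, SE, edgeR adjusted p = 8.52e-158), where BTG2, with 12 to 37 reads per library, had 0.16 ± 0.265 and did not pass. BTG3 did not pass there (-0.11 ± 0.055, adjusted p = 0.0793). The S-phase subunit gene RRM2 and the large subunit gene RRM1 rose with glutamine added to glucose (0.40 ± 0.027 and 0.44 ± 0.031), where RRM2B fell. With glutamine alone against neither nutrient RRM2 fell (-1.61 ± 0.029) and RRM1 fell (-1.12 ± 0.031), where RRM2B rose, and each of these directions was the same with library totals alone. ZMAT1 fell with glutamine added to glucose (-1.31 ± 0.089), where ZMAT3 rose, and ZMAT4 had at most 3 reads. FDX1, which encodes the ferredoxin that FDXR reduces, rose with glutamine added to glucose (0.37 ± 0.067), as FDXR did, but with glutamine alone against neither nutrient it fell (-0.70 ± 0.065), where FDXR rose, and FDX2 had at most 2 reads under its matched ID.

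**Figure D4:**
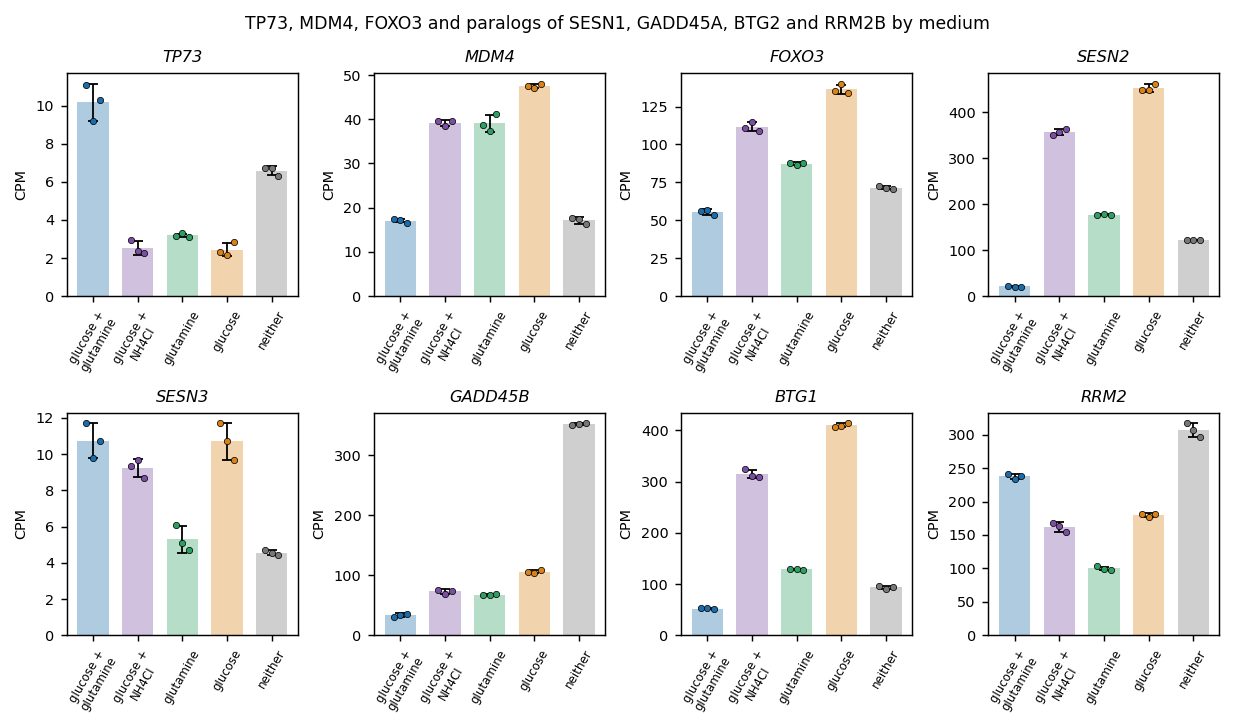
CPM of TP73, MDM4, FOXO3 and 5 paralogs in each medium: points are the 3 libraries, bars their mean and error bars the SD, and each axis starts at 0. SESN2 and BTG1 are low with both nutrients and high with glucose alone, GADD45B is high with neither nutrient, and TP73 is highest with both nutrients.

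Of 84 other p53 target genes, a list chosen with earlier results of these data known, 78 passed the low-count filter. Glutamine added to glucose raised 29 (37.2%) and lowered 31 (39.7%), against 34.2% and 33.7% of all genes tested, with a median log2 change of -0.05 against 0.00. The named rises were STEAP3 (1.11 ± 0.036, SE), a ferrireductase gene, PIDD1 (0.96 ± 0.081), a death domain gene, and PLCL2 (0.90 ± 0.127). The falls were GDF15 (-5.05 ± 0.110), a secreted stress cytokine gene, SESN2 and SLC30A1 (-3.67 ± 0.070), a zinc exporter gene. The 18 not called ranged from -0.18 to 0.28. NH4Cl added to glucose raised 15 (19.2%) and lowered 16 (20.5%), against 12.7% and 16.9% of all genes tested, with a median of 0.00 against -0.01. TP53INP1 (0.43 ± 0.051), GDF15 (0.42 ± 0.052) and TP53INP2 (0.33 ± 0.040) rose, and AEN (-0.65 ± 0.059), SLC30A1 (-0.40 ± 0.045) and SESN2 (-0.34 ± 0.023) fell. The 47 not called ranged from -0.54 to 0.19.

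Glucose added to glutamine raised 30 of the 78 (38.5%) and lowered 31 (39.7%), against 32.6% and 33% of all genes tested, with a median of 0.01 against -0.01. The counts were 36 and 26 with library totals alone, where 6764 of all 16889 genes were higher and 4359 lower. TP53INP2 (1.33 ± 0.043), the apoptosome gene APAF1 (0.98 ± 0.056) and the translesion polymerase gene POLH (0.81 ± 0.057) rose, and GDF15 (-4.41 ± 0.121), SESN2 (-3.09 ± 0.037) and SLC30A1 (5.23 CPM with both nutrients, against 21.0 CPM with glutamine alone) fell. The 17 not called ranged from -0.37 to 0.30. Both nutrients against neither raised 32 (41.0%) and lowered 30 (38.5%), against 37% and 35.3% of all genes tested, with a median of 0.02 against 0.05. With library totals alone the counts were 55 and 16, where 10866 of all 16889 genes were higher and 2405 lower (81.9% of the calls higher). TP53INP1 (3.13 ± 0.098), PGPEP1 (1.47 ± 0.061) and APAF1 (1.46 ± 0.064) rose, and SLC30A1 (-2.69 ± 0.084), SESN2 (-2.53 ± 0.039) and SERTAD1 (-2.14 ± 0.046) fell. The 16 not called ranged from -0.22 to 0.52. PERP, a desmosomal gene, and CSF1 were the 2 genes not called in any of these 4 comparisons, and PERP kept within 113 to 127 CPM in all 15 libraries.

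The genes closest in pattern were sought for the 4 genes with the widest range, among 10513 named protein-coding genes averaging 5 CPM or more. The measure was the root mean square difference between centred log2 CPM over the 15 libraries, which share media and depth. GADD45A was closest to NFIL3 (0.141), ATF4 (0.291) and CREBRF (0.299), against a median of 0.865 over all genes compared. NFIL3 averaged 10.7 CPM with both nutrients, 34.6 with glucose and NH4Cl, 30.8 with glutamine alone, 46.9 with glucose alone and 39.6 with neither, the order of levels that GADD45A had. Among the closest to RRM2B were ARFGEF1 (0.065) and CTDSP1 (0.073). MDM2 was closest to PHLPP2 (0.058), DICER1 (0.073) and FBXL18 (0.082). SESN1 was closest to ELMOD2 (0.139), DPY19L2 (0.145) and IFT172 (0.153).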

How the data were processed

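Poly(A) RNA of H1299 cells was sequenced in 15 libraries, 3 for each of 5 media. The authors deposited whole-number read counts for 58395 Ensembl genes, not normalized. The submitters' processing notes list GRCh38.p12, HISAT2 2.1.0, Subread 1.5.1 and featureCounts, without a role or order. Per the labels' protocols the library kit was directional, while strand use in counting and the handling of multimapping reads are not stated in the sources used. Reads shared with near-identical copies may be lost or split. Gene names, positions and exon lengths came from GENCODE 29, which holds 58275 of the IDs and lacks 120. Promoter windows came from RefSeq.

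Library totals of 14914127 to 19938691 were scaled by TMM. Genes kept by filterByExpr (16889) were tested by quasi-likelihood in edgeR 4.0.16 (R 4.3.3, limma 3.58.1) in a single fit of all 15 libraries, with robust estimation, 1 mean for each medium and 10 residual degrees of freedom. The common biological coefficient of variation was 0.0221. Each SE was derived from the test, as the absolute log2 change divided by the square root of its F statistic. Intervals were approximate, from this SE and a normal quantile. Tests were two-sided, p-values were adjusted by Benjamini-Hochberg over all genes of each comparison, and 0.05 was the threshold. The edgeR steps were tested on simulated counts for a single comparison, NH4Cl added to glucose. The fit of all 15 libraries and the difference between glutamine effects were not simulated. Libraries of a medium were not duplicates (0 of 15 pairs identical, chi-square per degree of freedom 1.219 to 2.358).

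The 10 genes and all lists were chosen with earlier results of these data known. Named besides them were TP63, TP73, MDM4, FOXO genes, paralogs, the partner genes RRM1, FDX1 and FDX2, and overlapping genes. Of the other p53 targets, the 3 largest called rises and falls with a mean of at least 5 CPM were named in 4 comparisons. Those not called are given as counts and ranges, with PERP and CSF1 named after their values were seen. A few genes under this rule are left out of the text. Likeness used log2 CPM with a prior count of 2. Alternatives were the Wald test of DESeq2 1.42.0, its size factors, library totals alone, a filter of 1 CPM in 3 libraries or none, the compared media alone, a replicate block and each library left out in turn. A test against a 1.2-fold change was added after the data were seen.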

Additional observations from a re-analysis of the deposited data

Results flagged for a closer look

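The effect of glutamine with glucose differed from its effect without glucose, by a test of the difference itself (edgeR, adjusted over all genes), for 5 of the 10 genes. The difference of log2 changes was -0.74 for MDM2, -1.59 for GADD45A, -0.91 for RRM2B, -0.30 for XPC and 0.71 for TP53I3. Over all genes tested 74.8% passed the same test. The result for XPC did not pass against a 1.2-fold change (adjusted p = 0.188). RRM2B changed in opposite directions in the 2 settings. TP53I3 did so on the TMM scale, but its change without glucose was -0.02 (adjusted p = 0.868) with library totals alone.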

How the results depend on the processing

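Each of the 11 counts of called genes was within 1.5 times its value under DESeq2 size factors, its Wald test, no low-count filter, a filter of 1 CPM in 3 libraries, the compared media alone and each library left out. Without single libraries the counts were 5 to 7 for glutamine added to glucose, 4 to 4 for NH4Cl added to glucose, 4 to 5 for NH4Cl against glutamine with glucose, 6 to 7 for glucose added to glutamine, 7 to 8 for glucose against neither, 7 to 9 for glutamine against neither, 8 to 8 for both against neither, 7 to 8 for glucose with NH4Cl against neither, and 5 to 6 for the difference between glutamine effects. With library totals alone that last count was 9, where 4324 of all 16889 genes were higher and 8497 lower. Against a 1.2-fold change, in the same order, 3, 1, 2, 3, 4 and 5 genes passed in the first 6 comparisons, and 4 passed for glutamine against glucose and for glucose with NH4Cl against glutamine. Of all 16889 genes, those higher and lower were 3814 and 3603, 228 and 216, and 3045 and 3371 in the first 3. They were 3317 and 3168, 5506 and 5072, and 4790 and 4369 in the next 3. In the last 2 they were 3305 and 3386, and 2941 and 3075.

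Single genes turned direction with library totals alone. TIGAR had 0.15 for glucose, 0.08 for glutamine, 0.04 for both and 0.10 for glucose with NH4Cl, each against neither, -0.07 for glutamine against glucose, 0.02 for glucose with NH4Cl against glutamine and -0.20 for the difference between glutamine effects. FDXR had 0.06 for glucose added to glutamine, TP53I3 0.19 for glucose against neither and GADD45A 0.16 for glucose with NH4Cl against neither. The MDM2 change with glutamine added to glucose was 0.00 with DESeq2 size factors and the DESeq2 Wald test. Leaving out a library turned 18 changes, none of them called: MDM2 ranged from -0.02 to 0.03 for glutamine added to glucose and from 0.00 to 0.04 for glucose with NH4Cl against glutamine, SESN1 from -0.01 to 0.12 for glucose with NH4Cl against both, FDXR from -0.10 to 0.02 for glucose added to glutamine, TP53I3 from -0.05 to 0.07 for glucose with NH4Cl against neither, TIGAR from 0.00 to 0.06 for glutamine against glucose, and XPC from -0.07 to 0.02 for NH4Cl added to glucose. BTG2 ranged from -0.08 to 0.33 for glucose against neither, -0.08 to 0.32 for glutamine added to glucose, -0.21 to 0.19 for NH4Cl added to glucose and -0.01 to 0.27 for glucose with NH4Cl against neither. The cause was not tested.

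A replicate block kept all 110 single results in direction and on their side of the threshold and all 11 counts within 1.5 times (7 called for glutamine added to glucose). Equal replicate numbers did not pair the libraries: their residuals correlated at a median of -0.001 (30 pairs, -0.077 to 0.073), against 0.004 for different numbers (60 pairs), and 5 of 15 libraries were closest to their own number. The lowest counts were those of BTG2, at 12 to 37 reads, and how far depth limits its calls was not tested.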
